A study of Mus musculus with 28 samples.

Results

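The regions described here carried 5-hydroxymethylcytosine (5hmC) peaks in both libraries of mice lacking Tet1 and Tet2, and in no library of Tet2 knockout or wild-type mice. They were chosen by the measured 5hmC peak lists themselves. Peaks of 6 lists on chromosomes 1 to 19 were merged where they overlapped by at least 1 bp, and a region was kept when both double knockout lists had a peak in it and the other 4 lists had none. Of 205075 merged regions, 2251 met this rule, which is 1.10%, and they are called DKO-only regions below. That share is the rule's own outcome and is given as a description.

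Tet1 and Tet2 are dioxygenases that oxidise 5-methylcytosine (5mC) to 5hmC, which can be a step towards removal of the methyl group or a mark that persists. Another family member, Tet3, carries out the same reaction and is not among the genes deleted here. In blood-forming cells TET2 is one of the genes most often mutated in myeloid malignancies, and TET1 loss has been tied to B-cell malignancy in mice. A peak of 5hmC in a cell without Tet1 and Tet2 is therefore a place where captured signal passed the caller's threshold although both deleted enzymes are missing.

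The study profiled LK cells of the bone marrow, a name taken from the labels, from young C57BL/6 mice of 6 to 10 weeks. The genotypes were Tet1 and Tet2 double knockout (DKO), Tet2 knockout (Tet2KO, with Tet1 intact by its label) and wild type (WT), and the labels give no Cre, promoter or clone. 5hmC was mapped by hMe-Seal, in which 5hmC is chemically tagged and the tagged DNA is captured, in 2 libraries per genotype. 5mC was mapped by immunoprecipitation of methylated DNA (MeDIP-seq) in 2 DKO libraries, 1 Tet2KO library and 2 WT libraries. A further 17 RNA samples were not analysed here. Peak lists hold no expression values, so the cell type and the deletions could not be checked from them.

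The 5hmC lists held 130077 and 143960 peaks in DKO, 137013 and 140491 in Tet2KO, and 128471 and 135265 in WT. The 5mC lists held 147934 and 120243 peaks in DKO, 138122 in the Tet2KO library, and 126995 and 140979 in WT. The number of reads behind each list is unknown. Both assays report enrichment, so a library without a peak is a library in which signal did not pass the threshold, not one shown to lack the mark.

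DKO-only regions were a small remainder of what both DKO libraries shared. Both had a peak in 96135 regions, and 61524 of these (64.0%) had a peak in all 4 other libraries too. Going down, 17177 had a peak in 3 of the others, 9692 in 2, 5491 in 1 and 2251 (2.34%) in none. The same rule applied to the other genotypes gave 1953 regions for the Tet2KO pair (0.952% of all regions) and 2725 for the WT pair (1.33%). These are called Tet2KO-only and WT-only, and the 61524 regions found in all 6 lists are called constant. With all listed peaks, DKO-only regions were thus more numerous than Tet2KO-only and fewer than WT-only regions. The order was not tested, since the same lists define all 3 sets. Its WT part depended on the score. With 5hmC peaks scored at least 100 there were 1334 DKO-only, 956 Tet2KO-only and 1347 WT-only regions. At a score of at least 200 the rule gave most regions for DKO, with 673 against 378 for Tet2KO and 472 for WT. None of these belonged to the sets from all listed peaks. In those sets the lower score of the pair reached at most 149.58 in DKO-only, 138.85 in Tet2KO-only and 145.38 in WT-only regions. A single library alone gave more regions than any pair. Regions called in DKO replicate 1 only numbered 5027 and in DKO replicate 2 only 9260, against 11832 and 11112 for the Tet2KO libraries and 6702 and 8750 for the WT libraries.

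The authors' peak score, in the form that MACS writes as −10 times the log10 of a p-value, placed DKO-only peaks low in their lists. No list held a score under 50. The best peak per region had a median score of 62.6 in DKO replicate 1 (lowest 50.0, highest 206.9) and 65.8 in DKO replicate 2 (lowest 50.0, highest 197.2), while the medians of the whole lists were 97.1 and 96.8. As ranks within their own list, the median DKO-only peak stood at percentile 18.9 in replicate 1 and 23.7 in replicate 2. Peaks above their list's median numbered 140 (6.22%) in replicate 1 and 225 (10.0%) in replicate 2, and in 27 regions (1.20%) this held for both libraries. The lower of the 2 scores was under 60 in 1411 regions (62.7%) and at least 100 in 20 (0.888%). Its median of 57.1 was close to those of Tet2KO-only regions (56.8) and WT-only regions (58.5). These scores belong to the lists that chose the regions and are given without a test. With peaks under 100 left out of every list, the same rule gave 1334 regions, of which 1314 (98.5%) held a weaker Tet2KO or WT peak, so 20 were DKO-only regions. Leaving out 1 library relaxes the rule, so the count can only rise. It rose to between 3233 and 11737, the highest being without DKO replicate 1.

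**Figure D1:**
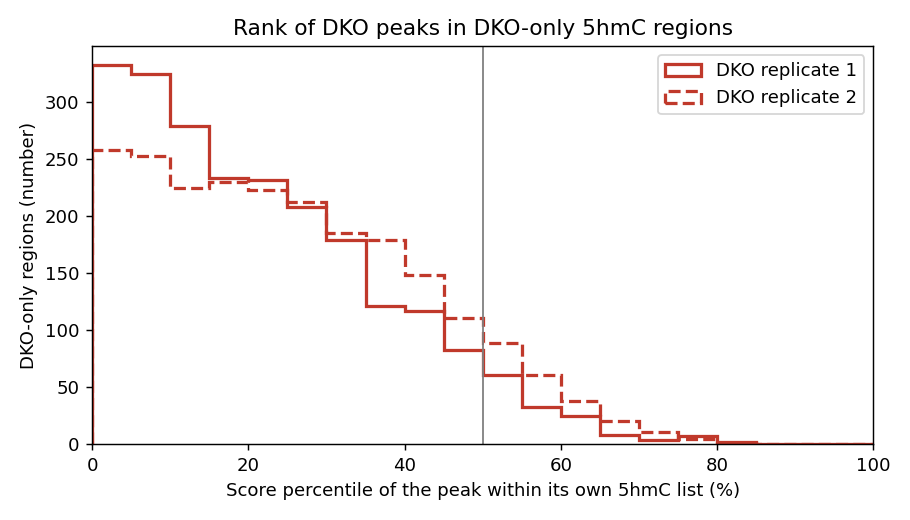
Number of DKO-only 5hmC regions (vertical axis) by the score percentile of their best peak within the list of its own library (horizontal axis, %), in classes of 5 percentage points, for DKO replicate 1 (solid) and DKO replicate 2 (dashed). The grey line marks the list median, which 140 and 225 regions exceeded.

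The regions nearest to the threshold show how finely it cut. Just inside, chr5:151084659-151085379 (all positions are mm9, counted from 1) had scores of 50.02 and 52.78 in the DKO libraries and no peak elsewhere. Just outside, chr1:108480234-108481137 had DKO scores of 65.39 and 75.23 and was left out for a WT replicate 1 peak scored 50.01. Of the 5491 regions with both DKO peaks and 1 other peak, that other peak scored under 55 in 910 (16.6%), and its median score was 69.3. The single other peak was in Tet2KO replicate 1 in 1534 regions and in Tet2KO replicate 2 in 2088, against 920 in WT replicate 1 and 949 in WT replicate 2. The Tet2KO libraries also had more regions called in 1 library alone, 11832 and 11112 against 6702 and 8750 in WT. This contrast was not tested.

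The DKO peaks within a region lay largely on the same bases, and some overlap of the libraries is set by the merging rule. The part covered by both libraries was a median 78.6% of the region's width, and it exceeded 50% of the width in 2133 regions (94.8%). The centres of the DKO peaks lay a median 44.5 bp apart. These values come from the lists that chose the regions, and no matching values for the other sets are given. DKO-only regions had a median width of 618 bp (upper quartile 730.5 bp, widest 1951 bp), against 723 bp for all merged regions. Tet2KO-only regions had a median width of 557 bp, WT-only regions of 686 bp and constant regions of 1182 bp.

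No peak of a DKO-only region stood above percentile 82.2 of its list in DKO replicate 1 or 81.3 in replicate 2. The highest lower score belonged to chr14:79990609-79991395, 787 bp wide, with scores of 149.58 and 152.84. The strongest single peak lay in chr7:86925518-86927398, 1881 bp wide, with 206.9 and 135.77, and no 5mC library had a peak there. Next in rank were chr16:46001614-46002955 with 166.27 and 125.63, chr4:142787702-142788981 with 126.56 and 124.29, and chr18:70816626-70818098 with 123.49 and 129.9. In chr7:56302204-56303089 the scores were 117.83 and 180.85, and in chr17:44800473-44801812 they were 113.15 and 152.53. The list of 10 closed with chr9:42711361-42712665, chr4:147465529-147466159 and chr15:55122351-55123350, whose lower scores were 111.28, 109.53 and 109.34. In 8 of these 10 regions none of the 5 5mC libraries had a peak. The exceptions were chr14:79990609-79991395, where 5mC peaks covered 28.6% in DKO replicate 2 and 29.5% in WT replicate 2 only, and chr9:42711361-42712665, where they covered 12.5% and 15.2% in DKO and 16.3% in WT replicate 1 only. The widest region, chr16:34089262-34091212, spanned 1951 bp with scores of 81.87 and 64.75, and lay 338 bp from a constant region.

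5hmC peaks of all genotypes lay in the surroundings of DKO-only regions. In the 10 kb on each side, leaving out the region itself, DKO 5hmC peaks covered 13.3% and 12.8% of the bases, Tet2KO peaks 11.6% and 11.2%, and WT peaks 13.0% and 12.6%. The DKO and WT values overlap and both Tet2KO values are lower. The Tet2KO lists also covered less of chromosomes 1 to 19 as a whole, with 101.1 and 98.2 Mb. The DKO lists covered 109.7 and 105.5 Mb and the WT lists 111.4 and 108.8 Mb. Around constant regions, 5hmC peaks covered more of the flanks, from 19.4% in Tet2KO replicate 2 to 22.7% in WT replicate 1. The nearest Tet2KO peak was a median 2322 bp away in replicate 1 and 2338 bp in replicate 2, and the nearest WT peak 2314 and 2296 bp. A constant region lay within 5 kb of 1052 DKO-only regions (46.7%), of 46.3% of Tet2KO-only regions and of 54.1% of WT-only regions. No Tet2KO or WT peak lay within 1 kb of 1224 DKO-only regions (54.4%), within 10 kb of 208 (9.24%) or within 100 kb of 19 (0.844%). The matching share for 10 kb was 10.9% for Tet2KO-only regions and 5.87% for WT-only regions, each counted against the other genotypes. All these neighbours come from the lists that chose the regions.

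**Figure D2:**
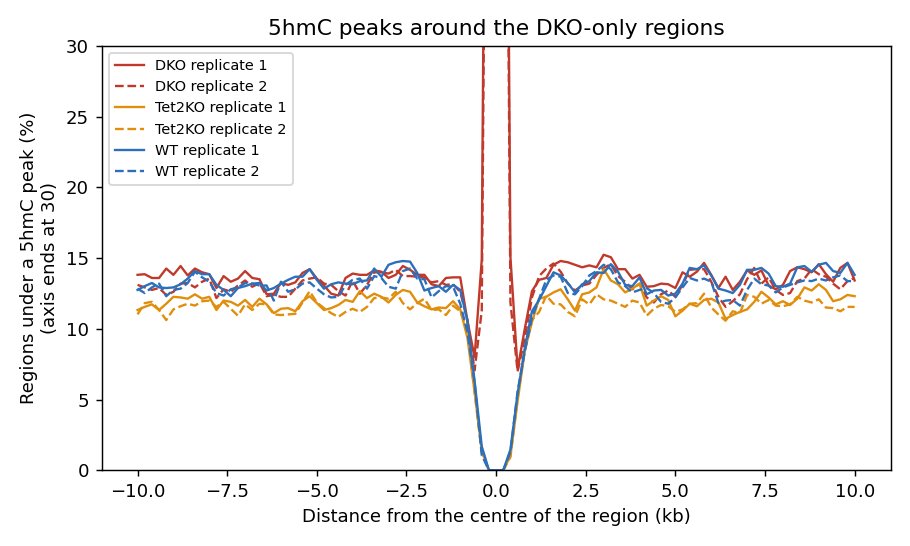
Share of the 2251 DKO-only regions under a 5hmC peak (vertical axis, %, drawn to 30) against distance from the region's centre (horizontal axis, kb) in each 5hmC library. At the centre the rule sets the Tet2KO and WT lines to 0, and 2 kb to the left the shares are 13.8% and 13.6% in DKO, 11.6% and 12.1% in Tet2KO, and 12.7% and 13.5% in WT.

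The most isolated region, picked after its values were seen, was chr10:54716510-54717099. Its DKO 5hmC scores were 71.64 and 104.98, and the nearest Tet2KO or WT 5hmC peak was 809 kb away. 5mC peaks covered none of it in either DKO library, 61.7% in the Tet2KO library and 52.0% and 41.0% in the WT libraries. It was 1 of 15 DKO-only regions with a 5mC peak in both WT libraries and in no DKO library, a class described further on.

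The regions were spread over all 19 autosomes. They made up between 0.843% of merged 5hmC regions on chromosome 19 and 1.39% on chromosome 9, where 156 lay. Chromosome 6 followed with 157 regions (1.35%), and it was also the chromosome with the highest share of Tet2KO-only regions (1.52%). Among 211 windows of 10 Mb with at least 300 merged regions, the DKO-only share had a median of 1.04% (lower quartile 0.805%, upper quartile 1.39%). No such window was without a DKO-only region. The highest share, 11 of 361 regions (3.05%), was between 10 and 20 Mb of chromosome 15. The 2251 regions fell in 1988 bins of 100 kb, and 1757 of these bins held 1 region. The median distance to the next DKO-only region was 161.4 kb.

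**Figure D3:**
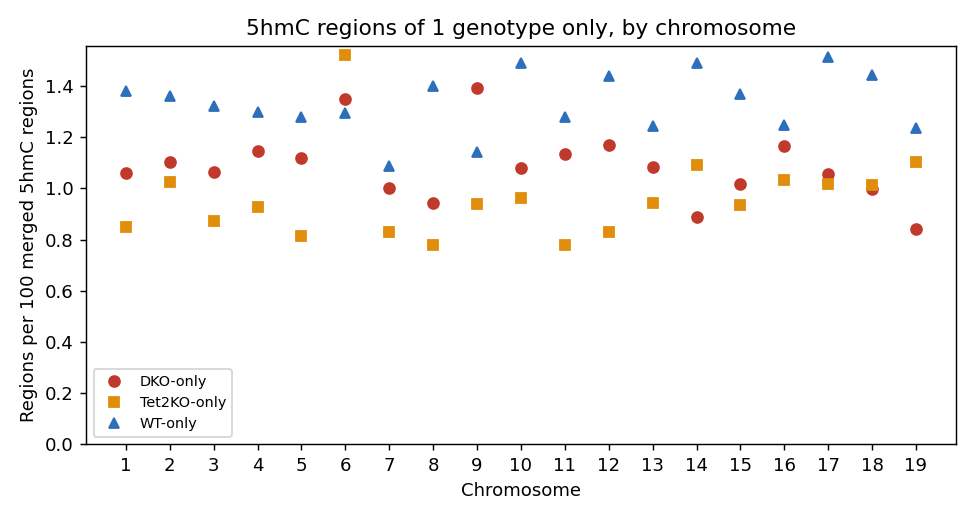
DKO-only (circles), Tet2KO-only (squares) and WT-only (triangles) regions per 100 merged 5hmC regions (vertical axis) on chromosomes 1 to 19 (horizontal axis). DKO-only values run from 0.843 on chromosome 19 to 1.39 on chromosome 9, and no chromosome lacks them.

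The fullest bins, 7 in number, held 4 DKO-only regions each. In the bin chr11:113000001-113100000, 5hmC peaks covered 18.5% and 14.8% of the bases in DKO, 5.46% and 4.30% in Tet2KO, and 12.1% and 11.2% in WT. All genotypes had peaks there, with DKO above WT and Tet2KO lowest. In chr6:28700001-28800000 the covered shares were 18.2% and 16.4% in DKO, 11.8% and 12.1% in Tet2KO, and 12.6% and 13.9% in WT. In chr15:11900001-12000000, inside the 10 Mb window with the highest share, they were 11.1% and 12.2% in DKO, 7.24% and 6.64% in Tet2KO, and 7.79% and 10.2% in WT. Both DKO values exceeded all 4 others in 5 of the 7 bins, these 3 included. The exceptions were chr2:116700001-116800000, with 5.23% and 6.33% in DKO, 4.36% and 3.57% in Tet2KO, and 5.53% and 2.26% in WT, and chr4:144800001-144900000, with 24.9% and 20.9% in DKO, 17.2% and 15.6% in Tet2KO, and 20.3% and 21.5% in WT. The bins were picked by the same peaks, so this is a description.

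5mC was not used to choose the regions, and 5mC peaks were scarce there in all genotypes. A 5mC peak overlapped 242 of the 2251 regions (10.8%) in DKO replicate 1 and 192 (8.53%) in DKO replicate 2. The count was 205 (9.11%) in the Tet2KO library, 217 (9.64%) in WT replicate 1 and 223 (9.91%) in WT replicate 2. Both WT values lie between the DKO values. The DKO mean was 9.64% ± 1.57 and the WT mean 9.77% ± 0.188 (SD, n = 2 each), a difference of -0.133 percentage points. An exact two-sided permutation test over the libraries gave p = 1 (adjusted p = 1 over 5 tests), and 2 against 2 libraries cannot give a p below 0.333. By length, 5mC peaks covered 3.98% ± 0.131 of the DKO-only bases in DKO and 4.06% ± 0.222 in WT (SD, n = 2 each), which differed by -0.0839 points (exact permutation p = 0.667, adjusted p = 0.833). The Tet2KO library had 3.91%. No difference in 5mC peaks between DKO and WT beyond the spread between libraries was detectable at these regions. The sign of both differences turned under some other settings, for instance to 0.0666 and 0.0339 points with 5mC peaks of a score of at least 100.

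**Figure D4:**
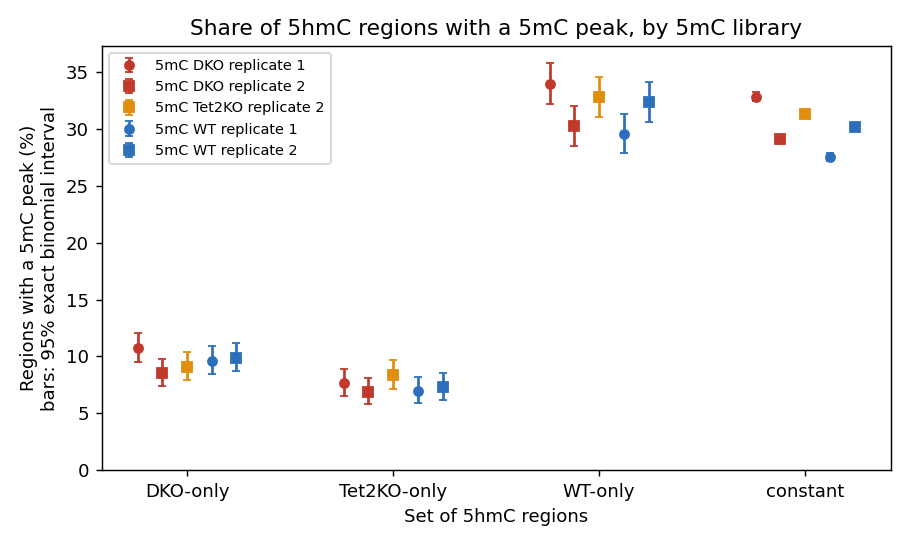
Share of regions with a 5mC peak (vertical axis, %) in each 5mC library, for DKO-only, Tet2KO-only, WT-only and constant 5hmC regions (horizontal axis). Bars are 95% exact binomial intervals, which cover counting error only. DKO-only regions lie between 8.53% and 10.8%, and WT-only and constant regions lie at or above 27.5%.

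In all 5 5mC libraries, whatever their genotype, 5mC peaks were less frequent in DKO-only regions than in WT-only and constant regions. Over the 5 5mC libraries the share with a 5mC peak was 9.59% ± 0.838 (SD, n = 5) in DKO-only regions. It was 7.42% ± 0.598 in Tet2KO-only regions, 31.8% ± 1.83 in WT-only regions, 30.2% ± 2.03 in constant regions and 19.8% ± 1.27 in all merged regions. DKO-only regions were 22.2 points below WT-only regions on average (difference -22.2, SD 1.48), with differences from -23.7 to -19.9 in the 5 libraries. They were 20.6 points below constant regions (difference -20.6, SD 1.74), from -22.2 to -17.9, again in 5 of 5 libraries. Against Tet2KO-only regions they were 2.16 points higher (SD 0.945), from 0.761 to 3.12, in 5 of 5 libraries. For each of the 3 comparisons an exact two-sided sign-flip permutation test over libraries gave p = 0.0625, the smallest that 5 libraries allow, and an adjusted p of 0.104 over 5 tests. None can therefore pass 0.05, whatever the size of the difference.

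Width differs between the sets, so the comparison was repeated within regions of 500 to 1000 bp. There the share was 9.64% in DKO-only, 8.55% in Tet2KO-only, 32.2% in WT-only and 20.1% in constant regions. The distance to WT-only regions was as large as before (-22.5 points), the distance to constant regions was smaller (-10.4 points), and the excess over Tet2KO-only regions was 1.10 points, present in 4 of 5 libraries (exact permutation p = 0.125). In the central 500 bp of each region the shares were 8.62% in DKO-only, 6.83% in Tet2KO-only, 30.3% in WT-only and 21.7% in constant regions. Among regions with no 5hmC peak of another genotype within 1 kb, they were 9.04% in DKO-only, 8.11% in Tet2KO-only and 30.4% in WT-only regions. The excess over Tet2KO-only regions was then 0.923 points, present in 4 of 5 libraries (exact permutation p = 0.188).

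Compared with their surroundings, DKO-only regions were not rich in 5mC peaks. 5mC peaks covered 4.0% of the bases inside the regions and 3.81% of the 10 kb on each side, a ratio of 1.05 ± 0.0451 (SD over 5 libraries, 1.00 to 1.12). The ratio was 1.14 ± 0.050 at Tet2KO-only regions, 3.28 ± 0.0711 at WT-only regions and 1.93 ± 0.0491 at constant regions. It was lower at DKO-only than at WT-only and constant regions in 5 of 5 libraries, and lower than at Tet2KO-only regions in 4 of 5. The flanks themselves differed less, with 3.81% at DKO-only, 3.14% at Tet2KO-only, 4.87% at WT-only and 4.89% at constant regions.

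Position by position, 5mC peaks were more frequent over the centre of the regions than 400 bp to either side. A 5mC peak lay over the centre of 5.54% of DKO-only regions (mean of 5 libraries, 5.24% to 6.09%), against 2.15% and 1.74% at 400 bp to either side and 4.17% and 3.72% at 5 kb. At the same points Tet2KO-only regions had 4.31% at the centre and 1.70% and 1.62% at 400 bp. WT-only regions had 22.0% at the centre and 5.83% at 400 bp on both sides, close to the 4.77% and 5.36% at 5 kb. The low level beside the centre was thus shared by DKO-only and Tet2KO-only regions, while constant regions had 12.5% at the centre and 6.90% and 6.91% at 400 bp. These profiles were read without a test.

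**Figure D5:**
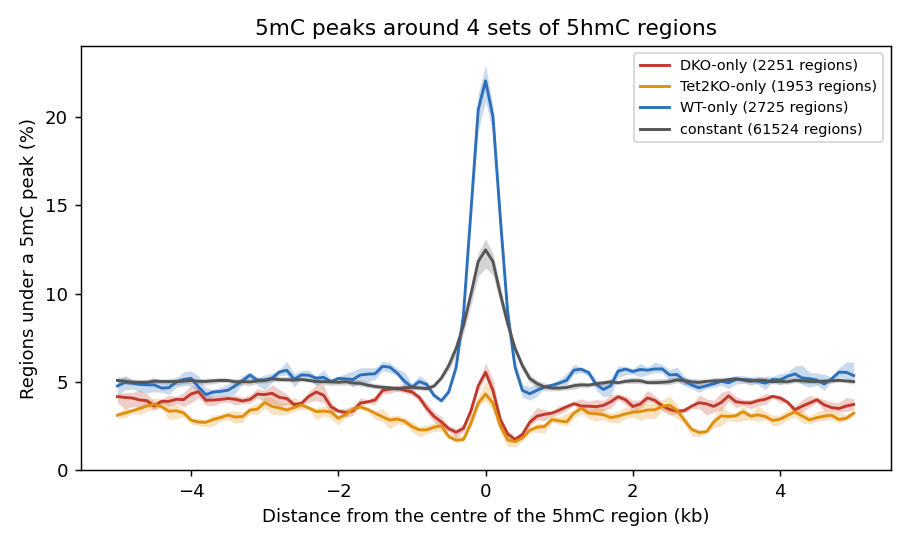
Share of regions under a 5mC peak (vertical axis, %) against distance from the centre of the 5hmC region (horizontal axis, kb) for 4 sets of 5hmC regions. Lines are means of the 5 5mC libraries and bands their lowest and highest value. DKO-only regions reach 5.54% at the centre, with 2.15% and 1.74% at 400 bp, and WT-only regions reach 22.0%.

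Most DKO-only regions had no 5mC peak in any library. This held for 1887 of 2251 (83.8%, 95% exact binomial interval 82.2% to 85.3%), for 87.7% of Tet2KO-only, 56.7% of WT-only, 57.1% of constant and 70.6% of all merged regions. A peak in all 5 libraries was found in 115 DKO-only regions (5.11%), against 3.94% of Tet2KO-only, 22.2% of WT-only, 19.8% of constant and 12.4% of all merged regions. Of these 115, chr17:12464998-12465642 had the highest 5mC scores by its weakest library. They were 1629 and 1386 in DKO, 1949 in Tet2KO, and 1717 and 1584 in WT, although the peaks covered only 5.89% to 15.2% of that region. This region was picked after its values were seen. In chr9:58706221-58707887, among the 5 widest, 5mC peaks covered 61.6% and 71.1% in DKO, 65.5% in Tet2KO, and 64.5% and 55.01% in WT.

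The share with a 5mC peak was higher in wider DKO-only regions, and it had no steady order with their 5hmC score. Over the 5 libraries it averaged 7.15% in the 425 regions under 500 bp, 9.37% in 1325 of 500 to 750 bp, 10.7% in 357 of 750 to 1000 bp and 16.0% in the 144 of at least 1000 bp. Wider regions offer more bases for an overlap of at least 1 bp, and the shares were not adjusted for this. By the lower DKO score the share was 9.74% for scores of 50 to 55, 10.5% for 55 to 60, 8.42% for 60 to 75 and 10.0% from 75 upwards. These score classes also differed in width, with medians of 582.5, 617, 647 and 734.5 bp. Regions within 1 kb of a constant region had 10.4%, those at 1 to 5 kb 10.4%, those at 5 to 20 kb 8.62% and those farther away 9.16%.

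5mC peaks in both libraries of DKO or of WT, and in neither library of the other, were few in all sets of regions. A 5mC peak in any library was present in 364 DKO-only regions (16.2%), against 29.4% of all merged 5hmC regions. A 5mC peak in both DKO libraries and in no WT library was found in 8 DKO-only regions (0.355%), against 0.857% of all merged 5hmC regions. The opposite, a peak in both WT libraries and in neither DKO library, was found in 15 DKO-only regions (0.666%), against 0.511% of all merged 5hmC regions. Both counts are small, and neither was tested against its background. The Tet2KO library had a peak in 2 of the 8 and in 8 of the 15.

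Among the 8, chr14:37703195-37703740 had 54.6% and 53.7% of its length under 5mC peaks in DKO, 45.1% in Tet2KO and 0% in both WT libraries. In chr10:111103847-111104558 the values were 30.9% and 35.5% in DKO, 24.9% in Tet2KO and 0% in WT. The Tet2KO library sided with DKO in both of these. In chr9:61493436-61494265 peaks covered 29.6% and 23.9% in DKO and nothing in Tet2KO and WT, and likewise 25.2% and 33.2% in chr1:181807973-181808715 and 27.9% and 34.6% in chr6:49926810-49927387. Among the 15, chr4:119544326-119545360 had 0% in both DKO libraries, 25.8% in Tet2KO, and 23.8% and 21.3% in WT. The Tet2KO library had peaks also in chr4:131354035-131354907 (5.38%, with 4.35% and 2.52% in WT) and in chr10:107819014-107819808 (10.6%, with 52.8% and 28.7% in WT). It had none in chr11:32652248-32653112, with 23.6% and 32.3% in WT, nor in chr17:48605888-48606717, with 28.8% and 21.1% in WT.

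With all 5 libraries, a fit across the genome made no call at any of these regions. The covered fraction of every merged 5hmC region with a 5mC peak in at least 2 libraries was compared with limma on the arcsine square root scale, and 46553 regions were tested, of which 254 were DKO-only. The rest of the DKO-only regions had too few 5mC peaks to enter, and a region could enter through 1 genotype alone, so nothing is read from how many of the 254 had a low p. For DKO against WT, 0 regions had an adjusted p under 0.05, which is 0% of those tested, and the smallest adjusted p was 0.192. At an unadjusted p under 0.05 there were 3351 regions (7.20%). For DKO against Tet2KO, 0 regions (0%) were called as well, with a smallest adjusted p of 0.369. There, 2750 regions (5.91%) had an unadjusted p under 0.05. The Tet2KO arm has 1 library, which the fit assumes to vary like the others. Without DKO replicate 2, limma called 731 regions (1.57% of all tested) higher in DKO than in WT, 5 of them DKO-only (1.97% of the 254). For DKO against Tet2KO it then called 1514 regions (3.25%), 7 of them DKO-only (2.76%). Without DKO replicate 1, it called 0 for DKO against WT and 2086 (4.48%) for DKO against Tet2KO, 13 of them DKO-only (5.12%). The smallest p of a DKO-only region was that of chr14:37703195-37703740, whose values are given above. That region entered the fit only through its DKO and Tet2KO peaks, with none in WT, so nothing is read from its p.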

How the data were processed

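The authors deposited 1 peak list per library, with chromosome, start, end and a score, and did not pool replicates. The deposited score has the form of −10 times the log10 of a p-value. The submitters' processing notes name CASAVA 1.4, Bowtie 0.12.9, MACS 1.4.2 and the build mm9. For read depth, control libraries and duplicate removal, nothing is given in the sources used here. Deeper libraries can yield more and wider peaks, which bears directly on regions defined by a missing peak.

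Peaks of the 6 5hmC lists were merged in Python 3.11.15. The members and lists were chosen with earlier results of these data known. Positions were converted to start from 1. Overlap means at least 1 bp. 5mC was summarised per library as the share of regions with a peak and the share of bases covered. Libraries were compared by exact permutation tests, adjusted by the Benjamini-Hochberg method over 5 tests. All merged regions with a 5mC peak in at least 2 libraries were fitted with limma 3.58.1 in R 4.3.3 (arcsine square root of the covered fraction, trend in the prior variance, all 5 libraries in 1 fit). The procedures were checked on simulated data.

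Regions named are the 10 with the highest lower DKO score, the 5 widest, the fullest 100 kb bins, the 5 widest with 5mC in both DKO and no WT library and the opposite, and those nearest to the score threshold. Not all of these are described. 7 bins tied, and 3 were chosen from them after their values were seen.

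Titles gave the groups and replicate numbers. The 5mC Tet2KO library has the number 2 in its title and 1 in the name of its list. No label states that libraries derive from different animals, and p-values therefore reflect only library-to-library spread, possibly technical. Binomial intervals cover counting error only. No mm9 genome or annotation was used, so no genes or sequences are named, and planned parts on promoters, base composition, motifs and gene lists were not run.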

Additional observations from a re-analysis of the deposited data

Results flagged for a closer look

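Chromosome X lies outside the rule that chose the regions, and it held regions of the same kind. Of 1342 merged 5hmC regions on X, 30 (2.24%) had a peak in both DKO libraries and in no other library, 28 (2.09%) in both Tet2KO libraries only, and 13 (0.969%) in both WT libraries only. The order of the 3 counts was not tested.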

How the results depend on the processing

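The number of DKO-only regions depended on the processing. It was 1334 with 5hmC peaks of a score of at least 100, 673 at 200, and 1224 with no Tet2KO or WT peak within 1 kb. The number of DKO-only regions ranged from 3233 to 11737 without 1 library (11737 without DKO replicate 1, 7361 without DKO replicate 2, 3820 without Tet2KO replicate 1 and 4392 without Tet2KO replicate 2). Leaving out a library relaxes the rule, so these counts can only rise. Of the 1334, 1314 (98.5%) held a weaker peak of another genotype, so only 20 belonged to the 2251. None of the 673 did, since the lower DKO score of the 2251 reached at most 149.58. With 128026 top peaks per library there were 2064, which overlapped 1649 (73.3%) of the DKO-only regions. With peaks up to 500 bp apart merged there were 1554. WT-only regions were fewer than DKO-only regions at a score of at least 200 (472 against 673). They remained more numerous at 100 (1347), from the 128026 top peaks (3183) and after the 500 bp merging (1886). The same held with no peak of another genotype within 1 kb (1416 against 1224). The difference in 5mC share between DKO and WT turned positive at 0.0666 points with a 5mC score of at least 100, 0.562 with regions from 5hmC scores of at least 100, and 0.0222 with at least 50% of the 5mC peak inside. Without 1 library it ranged from -1.24 to 0.977, positive without DKO replicate 2. The covered length difference turned to 0.0339 and 0.205 under the first and the second of these settings, and ranged from -0.241 to 0.0732 without 1 library, positive without DKO replicate 2 or WT replicate 1. The cause was not tested. The limma fit for DKO against Tet2KO made 3424 calls when regions with a 5mC peak in 1 library entered (5.69% of 60206 tested, and 26 of 364 DKO-only regions, 7.14%) and 1753 where the mean covered fraction reached 0.05 (3.38% of 51905, and 16 of 314, 5.10%). The first setting adds regions seen in the single Tet2KO library alone. Most calls of both settings were lower in DKO than in that library. Without 1 library the calls ranged from 0 to 2086 for DKO against Tet2KO (2086 without DKO replicate 1, 1514 without DKO replicate 2) and from 0 to 731 for DKO against WT (731 without DKO replicate 2). These fits had 1 residual degree of freedom, except the fit without the Tet2KO library, which had 2. The fit of all 5 libraries also had 2. A replicate block left the difference in share at -0.133 points and made 0 limma calls in either comparison. Same-numbered DKO and WT libraries deviated with a correlation of -0.0437, and with 2 pairs the numbers are not shown to pair them. The mean difference in 5mC share from the other sets kept its direction in all alternatives tried, but against Tet2KO-only regions the excess was as low as 0.814 points (5mC score of at least 100), and 1 of 5 libraries turned at 500 to 1000 bp (-0.396) and with no other peak within 1 kb (-0.456). Depth is unknown, so an absent peak cannot be read as absent signal.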
